A study of Mus musculus with 74 samples.

Results

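Collagens are the genes whose symbol reads Col, a number, the letter a and a number (Col1a1, Col18a1). They were taken by that spelling alone, from the gene table of the liver RNA-seq and from the gene names of the peak tables of the liver ChIP-seq. The rule found 41 collagen genes, of which 34 stood among the 14583 genes of the RNA-seq table and 40 had at least 1 peak in a ChIP-seq table. Col4a6 was in the RNA-seq table alone, and Col9a1, Col9a2, Col11a1, Col17a1, Col19a1, Col22a1 and Col26a1 were in peak tables alone. The 34 genes of the RNA-seq table were split into 9 fibrillar, 8 basement membrane and 17 other collagens.

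The study asked what the corepressor subunit GPS2 does in hepatocytes, and compared livers of chow-fed mice that lack Gps2, Ncor, Smrt or Ppara with livers of their controls. RNA was measured in 4 WT and 4 Gps2 LKO libraries, and chromatin in 64 ChIP-seq libraries of H3K27ac, H3K4me3, GPS2, NCOR, PPARa and RNA polymerase II, with 1 to 3 libraries in a group. Gps2 LKO mice carried Gps2 flox/flox and Alb-Cre, a Cre driven by the albumin promoter and so active in hepatocytes, whereas their controls, named WT, were Gps2 flox/flox without Cre and came from the same breedings. Ncor LKO and Smrt LKO mice were liver knockouts with their own WT groups, and Ppara KO mice lacked Ppara in the whole body and were set against WT mice. The labels give strain C57BL/6 and an age of 8 to 12 weeks for every library. The methods of the study state that all mice were male, which the tags of the Smrt line given below go against. According to the methods, the chromatin of several immunoprecipitations was pooled for each ChIP-seq library. In a liver knockout driven by Alb-Cre the stellate and endothelial cells keep the gene.

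Collagens are secreted proteins of the extracellular matrix built from 3 chains wound into a triple helix. Fibrillar collagens (types I, III and V, with XI, XXIV and XXVII) form the fibrils that give a tissue its tensile strength, type IV collagen forms the sheet of basement membranes, and types XV and XVIII sit at basement membranes and carry heparan or chondroitin sulfate chains. Other collagens join fibrils to their surroundings (types XII, XIV and XVI), form beaded microfilaments (type VI) or span the plasma membrane (types XIII and XXV). In liver, hepatic stellate cells are known as the main source of types I and III, and hepatocytes are a known source of type XVIII. GPS2, NCOR and SMRT are subunits of a corepressor complex with histone deacetylase activity, PPARa is a nuclear receptor that this complex can bind, and H3K27ac marks active promoters and enhancers.

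The promoters of 2 collagens whose RNA rose in Gps2 LKO livers (Col1a1 and Col3a1) and of 2 whose RNA fell (Col5a3 and Col27a1) are shown first, since the results below turn on these genes. Each runs 5′ to 3′ on the strand of the gene, from 270 bases before the start of the transcript to 30 bases after it, in build mm9, from the NCBIM37 genome with gene starts of the GENCODE annotation of that build. Capitals mark matches on either strand to 3 short motifs of promoters. One is the letters CCAAT, bound by nuclear factor Y. Another is TATAAA, the core of many start sites, and the last is GGGCGG, which Sp1 and its relatives are known to bind.
Col1a1 promoter, chr11:94797268-94797567, + strand: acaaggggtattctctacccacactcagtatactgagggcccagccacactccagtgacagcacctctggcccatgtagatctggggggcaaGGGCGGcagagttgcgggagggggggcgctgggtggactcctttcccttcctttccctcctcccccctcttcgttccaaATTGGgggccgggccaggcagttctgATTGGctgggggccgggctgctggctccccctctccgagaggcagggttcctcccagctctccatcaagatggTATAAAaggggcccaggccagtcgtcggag
Col3a1 promoter, chr1:45368113-45368412, + strand: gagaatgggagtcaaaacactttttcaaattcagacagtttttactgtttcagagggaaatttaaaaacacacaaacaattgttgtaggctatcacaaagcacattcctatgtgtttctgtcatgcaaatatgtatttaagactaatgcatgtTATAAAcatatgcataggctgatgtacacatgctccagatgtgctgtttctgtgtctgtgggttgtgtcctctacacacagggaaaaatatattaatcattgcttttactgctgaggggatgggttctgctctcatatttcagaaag
Col5a3 promoter, chr9:20619482-20619781, - strand: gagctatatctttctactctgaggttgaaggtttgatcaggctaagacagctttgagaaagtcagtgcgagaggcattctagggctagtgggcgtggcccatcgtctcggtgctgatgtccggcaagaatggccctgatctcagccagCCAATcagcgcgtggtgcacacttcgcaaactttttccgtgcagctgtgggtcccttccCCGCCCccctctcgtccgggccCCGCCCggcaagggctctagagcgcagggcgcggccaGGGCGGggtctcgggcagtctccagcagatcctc
Col27a1 promoter, chr4:62876199-62876498, + strand: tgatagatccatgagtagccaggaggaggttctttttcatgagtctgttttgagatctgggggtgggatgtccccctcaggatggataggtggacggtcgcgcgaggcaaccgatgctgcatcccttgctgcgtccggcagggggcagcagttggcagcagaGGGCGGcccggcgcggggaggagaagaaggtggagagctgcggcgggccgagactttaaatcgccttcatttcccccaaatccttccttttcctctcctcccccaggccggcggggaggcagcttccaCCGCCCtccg

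The 4 promoters held different letters. Col1a1 had 2 matches to CCAAT with 1 match to TATAAA and another match to GGGCGG, Col3a1 had 1 match, to TATAAA, Col5a3 had 1 match to CCAAT and 3 to GGGCGG, and Col27a1 had 2 matches, both to GGGCGG. Over all collagen promoters of this length, 48.8% of 43 held CCAAT, 14% held TATAAA and 62.8% held GGGCGG, whereas 38.2%, 13.8% and 44% of 22367 promoters did. A match describes these letters and is not evidence that a factor binds them.

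The second set of sequences is the GPS2 peak with the most tags in WT liver at each of 4 collagen genes (at Col27a1 and Col5a3 another peak had as many), shown since each held 0 tags in the Gps2 LKO library, and is given on the + strand of mm9. Capitals mark AGGTCA on either strand, the letters of a nuclear receptor half-site.
Col18a1 GPS2 peak, chr10:76579342-76579478, + strand: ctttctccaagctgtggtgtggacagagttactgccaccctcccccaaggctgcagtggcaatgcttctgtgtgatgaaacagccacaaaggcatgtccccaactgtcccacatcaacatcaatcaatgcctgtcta
Col27a1 GPS2 peak, chr4:62891257-62891393, + strand: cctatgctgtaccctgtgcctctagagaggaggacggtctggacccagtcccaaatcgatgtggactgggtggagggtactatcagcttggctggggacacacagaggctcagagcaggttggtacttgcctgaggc
Col15a1 GPS2 peak, chr4:47258630-47258766, + strand: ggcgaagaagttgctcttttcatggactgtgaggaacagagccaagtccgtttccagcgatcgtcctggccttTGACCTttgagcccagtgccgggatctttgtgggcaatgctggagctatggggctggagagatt
Col5a3 GPS2 peak, chr9:20594241-20594377, + strand: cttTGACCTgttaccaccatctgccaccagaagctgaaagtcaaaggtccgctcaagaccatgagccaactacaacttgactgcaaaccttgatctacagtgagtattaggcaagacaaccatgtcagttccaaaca

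The Col15a1 and Col5a3 peaks held 1 match each to AGGTCA, and the Col18a1 and Col27a1 peaks held none. AGGTCA was found in 30.9% of 94 collagen peaks and 23.9% of 48909 GPS2 peaks of this length, and TGTTTAC, letters that forkhead factors are known to bind, in 7.45% and 4.69%.

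RNA-seq libraries held 13194385 to 20086127 reads assigned to genes, and ChIP-seq libraries held 7.902 to 46.1 times 1000000 tags. Gps2 itself stood at 16.4, 15.8, 16.7 and 15.1 CPM (counts scaled to 1000000 per library) in WT and at 12.7, 9.87, 9.17 and 12.9 in LKO livers, so that every LKO library was below every WT library (log2 fold change -0.53, SE 0.112, adjusted p 0.0021, edgeR). Among the RNA-seq libraries LKO replicate 2 stood apart from the other LKO libraries, with a chi-square per gene of 19.8 to 29.1 against 1.53 between LKO replicates 1 and 4. LKO replicate 3 also stood apart from replicates 1 and 4, at 9.87 and 9.14, whereas pairs of WT libraries had 1.69 to 2.53. Over all tested genes the log2 fold change went down with exon length (Spearman rho -0.40, a description across genes, which are not independent replicates), and the tested collagens are long, with a median exon length of 6112 bases against 2951.5 over all tested genes. The counts of collagens are therefore also given with this trend removed. In the H3K27ac data, 17 peaks of the Y chromosome held 1937 to 2776 tags in each library of the Ncor line and 2 to 6 in each library of the Smrt line. The 2 peaks at Xist and Tsix held 19 to 35 and 933 to 1091. Few Y tags with many Xist tags mark female tissue, which goes against the methods' statement that all mice were male. By these tags the Ncor and Smrt lines differ in sex besides the deleted gene.

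In the RNA of Gps2 LKO livers most collagens changed, and most of those rose. Of the 34 collagen genes 23 passed the filter on low counts, 14 of them rose, 4 fell and 5 did not pass the test, by edgeR's quasi-likelihood test with Benjamini-Hochberg adjustment over 12220 genes and a threshold of 0.05. Over all tested genes 23.4% were called higher and 21.4% lower. The median log2 fold change of the 23 collagens was 0.69, against 0.03 over all tested genes. With the trend of exon length removed 15 collagens were called higher and 3 lower (21.7% and 22.1% of all genes), with a median of 0.91. Liver pieces hold many cell types, and in such bulk RNA fewer cells of a type and less RNA per cell cannot be told apart. The labels do not say how libraries map to animals, so the p-values measure the spread between these libraries.

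**Figure D1:**
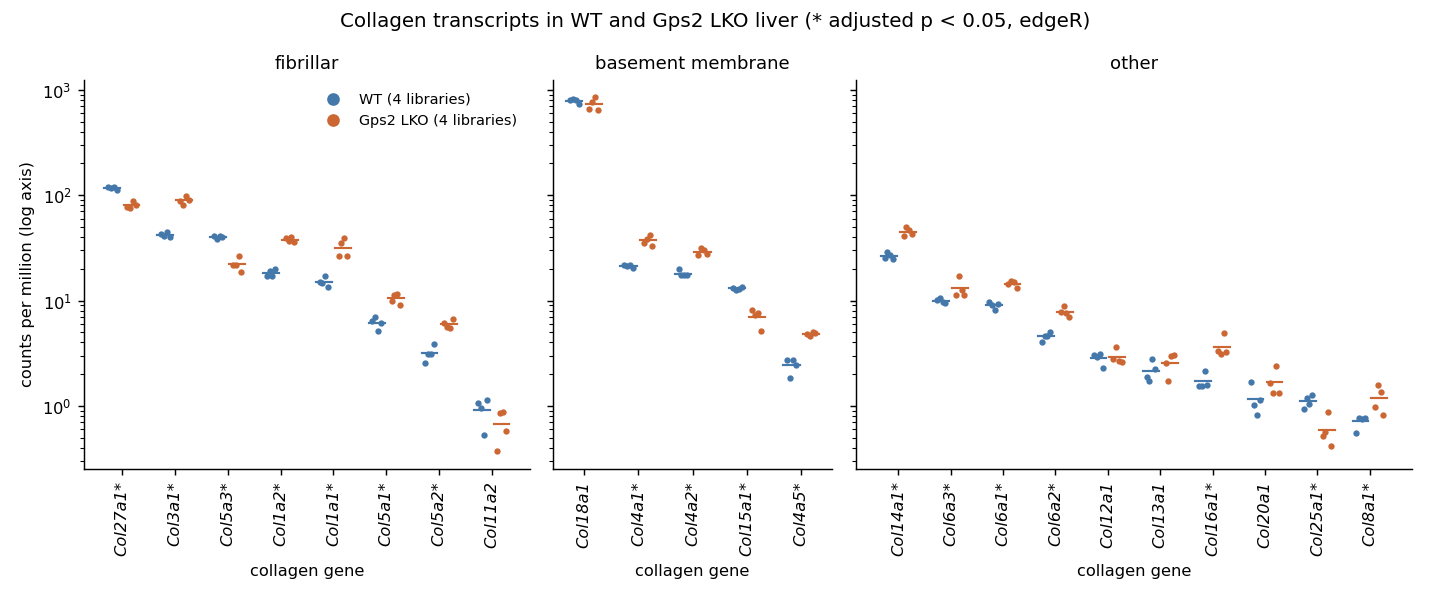
RNA level of each tested collagen gene in CPM (log axis), with 1 point per library (4 WT, 4 Gps2 LKO) and a bar at the group mean, in 3 panels by class. Col18a1 lies far above the other collagens in both groups, and the groups separate in opposite directions within each class.

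Among the fibrillar collagens 5 of 8 tested genes rose and 2 fell, with a median log2 fold change of 0.85. The 5 that rose form types I, III and V. Col3a1, the chain of type III, which forms thin fibrils in liver, was at 42.4, 40.9, 45.1 and 40.5 CPM in WT and 87.5, 80.7, 97.95 and 90.9 in LKO (42.2 ± 2.09 against 89.3 ± 7.19, mean ± SD, n = 4, log2 fold change 1.08, SE 0.0740, adjusted p 1.02e-07, edgeR). The LKO libraries were all about alike and all higher than the WT libraries, with no overlap. Col1a2, the α2 chain of type I, the most common fibril collagen, was at 17.2, 19.02, 17 and 19.9 CPM in WT and 38.9, 36.5, 39.8 and 36.2 in LKO (log2 fold change 1.05, SE 0.0786, adjusted p 2.58e-07, edgeR). Col1a1, the α1 chain that pairs with it, was at 14.95, 14.8, 16.9 and 13.4 CPM in WT and 26.4, 35.4, 38.9 and 26.5 in LKO (log2 fold change 1.09, SE 0.128, adjusted p 2.09e-05, edgeR). LKO replicates 2 and 3 were the highest for Col1a1, and the lowest LKO library still lay above the highest WT library.

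Type V collagen, which sets the width of fibrils, split by chain. Col5a1 went from 6.16 ± 0.756 to 10.5 ± 1.18 CPM (log2 fold change 0.78, SE 0.119, adjusted p 2.12e-04, edgeR) and Col5a2 from 3.15 ± 0.553 to 5.99 ± 0.524 (log2 fold change 0.92, SE 0.141, adjusted p 2.17e-04). Col5a3, the third chain, was at 40.9, 38.3, 40.8 and 40 CPM in WT and 21.8, 21.5, 26.4 and 18.6 in LKO and fell (log2 fold change -0.85, SE 0.0938, adjusted p 1.10e-05, edgeR). Its WT libraries lay close together and every LKO library was far below them, so 2 chains of the type rose while the other fell.

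Col27a1, a fibrillar collagen known from cartilage, was in CPM the second most abundant collagen in WT liver and the other fibrillar collagen that fell. It was at 118, 117, 119 and 112 CPM in WT and 77.7, 75.7, 88.9 and 80.1 in LKO (117 ± 2.82 against 80.6 ± 5.83, log2 fold change -0.53, SE 0.0651, adjusted p 3.05e-05, edgeR). No LKO library reached the lowest WT library. With the trend of exon length removed its log2 fold change was -0.25 (adjusted p 0.0233), a smaller difference that was still called. Col11a2, a chain of the cartilage type XI, was not called (log2 fold change -0.39, adjusted p 0.342), and Col24a1 held 0 to 5 reads per library and was not tested. Summed over the class the fibrillar collagens came to 237 to 248 CPM in WT and 268 to 310 in LKO libraries, a smaller step than that of types I and III, since Col27a1 and Col5a3 made up much of the sum in WT.

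Among the basement membrane collagens 3 of 5 tested genes rose, 1 fell and 1 was not called, with a median log2 fold change of 0.69. The 3 that rose are the 3 tested chains of type IV. Col4a1 was at 21.7, 21.3, 21.9 and 20.3 CPM in WT and 35.5, 38.4, 42.1 and 33.02 in LKO (log2 fold change 0.81, SE 0.0844, adjusted p 6.52e-06, edgeR), and Col4a2, which is transcribed in the opposite direction from the same start region and pairs with it in the common type IV helix, was at 19.8, 17.4, 17.3 and 17.6 and 27.3, 31.4, 30.1 and 27.4 (log2 fold change 0.69, SE 0.0819, adjusted p 2.11e-05). Every LKO library lay above every WT library for both. Col4a5, a chain of the rarer helices, went from 2.43 ± 0.420 to 4.84 ± 0.173 CPM (log2 fold change 0.99, SE 0.145, adjusted p 1.43e-04, edgeR), whereas Col4a3, Col4a4 and Col4a6 held at most 12 reads in a library and were not tested.

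The 2 collagens that give rise to antiangiogenic fragments behaved differently. Col15a1, the source of restin, was at 13.3, 12.7, 12.8 and 13.6 CPM in WT and 8.22, 7.22, 7.56 and 5.19 in LKO and fell (log2 fold change -0.88, SE 0.117, adjusted p 6.38e-05, edgeR). Col18a1, the source of endostatin, was at 809, 818, 795 and 728 CPM in WT and 663, 768, 847 and 639 in LKO. These LKO libraries spread over a wide range on both sides of the WT libraries, and the gene was not called (log2 fold change -0.11, SE 0.0828, adjusted p 0.293, edgeR). Scaled to total counts without TMM factors, Col18a1 had a log2 fold change of -0.29 (adjusted p 0.017), so its call depends on the scaling. Per length, Col18a1 was also the highest collagen, at 136 RPKM (CPM divided by exon length in kilobases) in WT and 126 in LKO, ahead of Col27a1 (15.3 and 10.6), Col3a1 (7.59 and 16.04) and Col5a3 (6.54 and 3.61). On this scale Col3a1 lay below Col27a1 in WT and above it in LKO. Because Col18a1 dominates, the summed basement membrane collagens ran from 782 to 873 CPM in WT and from 710.0 to 933 in LKO, with overlap, whereas type IV alone ran from 41.3 to 44.9 and from 65.9 to 77.8 without overlap.

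Among the other collagens 6 of 10 tested genes rose and 1 fell, with a median of 0.61. Col14a1, which binds the surface of fibrils, was the most abundant of them and went from 26.7 ± 1.97 to 44.9 ± 3.804 CPM (log2 fold change 0.75, SE 0.0828, adjusted p 1.10e-05, edgeR). The beaded filament chains Col6a1, Col6a2 and Col6a3 were all called higher, Col6a1 (0.68, adjusted p 6.82e-05), Col6a2 (0.79, adjusted p 1.75e-04) and Col6a3 (0.41, adjusted p 0.0203) by log2 fold change with edgeR. The call of Col6a3 was the least firm of these, since its adjusted p was 0.0535 without LKO replicate 2, 0.0565 without WT replicate 3, 0.0554 without WT replicate 4 and 0.194 without TMM factors.

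Col16a1, which like type XIV attaches to fibrils, went from 1.71 ± 0.296 to 3.62 ± 0.851 CPM (log2 fold change 1.08, SE 0.197, adjusted p 7.86e-04, edgeR). Col8a1, a short-chain collagen of vessel walls, rose at a low level (0.713 ± 0.103 to 1.18 ± 0.347 CPM, log2 fold change 0.78, SE 0.264, adjusted p 0.0285), but not by DESeq2 (adjusted p 0.085) or without LKO replicate 2 (0.114). Col25a1, a membrane-spanning collagen, fell (1.11 ± 0.152 to 0.590 ± 0.195 CPM, log2 fold change -0.87, SE 0.267, adjusted p 0.0172), and was not called with the length trend removed (adjusted p 0.0717). Col12a1 (0.06), Col13a1 (0.22) and Col20a1 (0.54) were not called, with adjusted p of 0.779, 0.416 and 0.121. Col12a1 became a call with the length trend removed (0.43, adjusted p 0.0283). Col6a5, Col6a6, Col7a1, Col8a2, Col9a3, Col23a1 and Col28a1 had at most 19 reads in a library and were not tested. Summed over the class, the other collagens came to 60.2 to 64.7 CPM in WT and 88.3 to 106 in LKO.

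**Figure D2:**
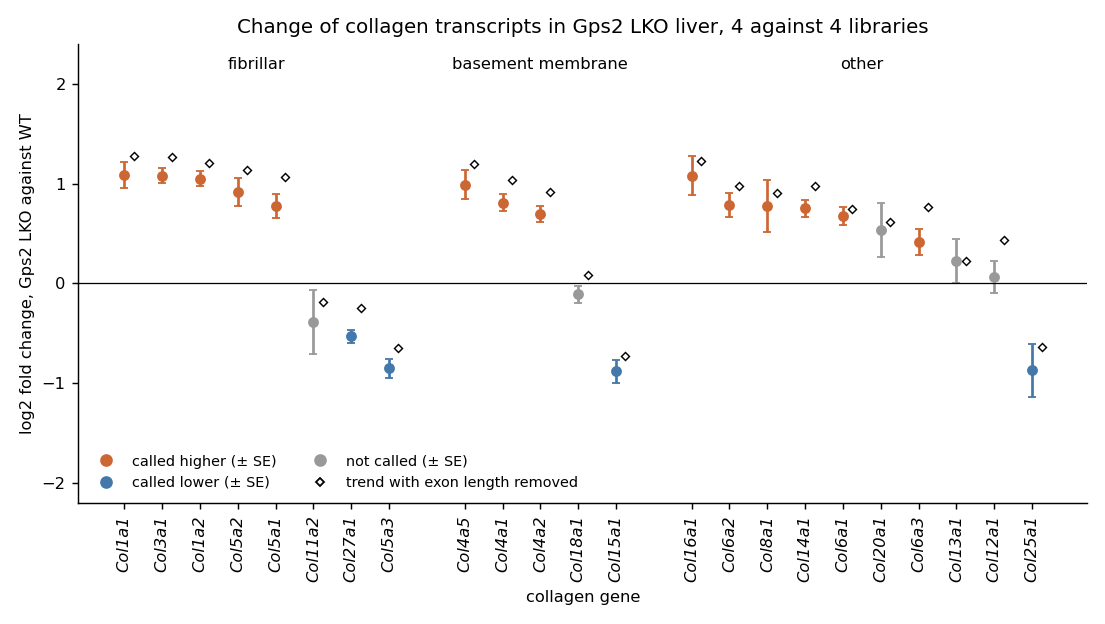
Log2 fold change of each tested collagen in Gps2 LKO against WT liver, with its standard error, ordered within class, and beside it the value with the trend of exon length removed (open diamonds). The fibrillar and type IV genes that rose lie between 0.69 and 1.09, and Col5a3, Col15a1, Col27a1 and Col25a1 lie below 0.

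Genes that fold, cut, cross-link and degrade collagen changed in both directions. The counts of each list stand beside 23.4% of all tested genes called higher and 21.4% called lower. Of 17 tested genes that modify and fold chains in the endoplasmic reticulum 7 rose and 6 fell (median log2 fold change 0.11). Serpinh1 (8.94 ± 0.415 CPM in WT, 15.7 ± 0.480 in LKO, log2 fold change 0.81, adjusted p 5.36e-06), the collagen chaperone HSP47, and Crtap (2.99 ± 0.143 CPM in WT, 7.37 ± 0.488 in LKO, log2 fold change 1.29, adjusted p 1.62e-06), part of the prolyl 3-hydroxylase complex, rose, as did Fkbp10 (1.24, adjusted p 3.08e-04), a prolyl isomerase. P4ha1 (29 ± 1.501 CPM in WT, 18.5 ± 0.968 in LKO, log2 fold change -0.65, adjusted p 2.02e-05), the catalytic subunit of prolyl 4-hydroxylase, and Plod1 (-0.43, adjusted p 5.22e-04), a lysyl hydroxylase, fell. Of 14 tested genes of propeptide cleavage, fibril assembly and cross-linking 9 rose and 1 fell (median 0.68). Decorin, Dcn (75.7 ± 2.59 CPM in WT, 137 ± 11.7 in LKO, log2 fold change 0.86, adjusted p 6.79e-07), and lumican, Lum (1.04, adjusted p 1.45e-06), small proteoglycans that bind fibrils, rose with Sparc (0.78, adjusted p 1.52e-06), a collagen-binding protein, and with Adamts2 (0.85, adjusted p 3.19e-04), the protease that removes amino-terminal propeptides. Bmp1 (139.9 ± 1.98 CPM in WT, 105 ± 7.96 in LKO, log2 fold change -0.42, adjusted p 2.12e-04), the protease that removes carboxy-terminal propeptides, fell.

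Of 8 tested degradation genes 6 rose and 2 fell (median 0.67), against 23.4% and 21.4% of all genes. The membrane collagenase Mmp14 (27.3 ± 1.82 CPM in WT, 46.1 ± 3.41 in LKO, log2 fold change 0.75, adjusted p 7.37e-06) rose with the gelatinase Mmp2 (0.87, adjusted p 3.41e-04) and with the inhibitor Timp2 (0.59, adjusted p 6.84e-04), whereas Mmp15 (-0.38, adjusted p 0.00519) and Mmp19 (-0.29, adjusted p 0.00159) fell. Of 6 tested collagen receptors Ddr1 (0.82, adjusted p 0.00603) rose, Itga10 (-0.71, adjusted p 0.00411) fell and the other 4 were not called, which is no more than the share of all genes given above, with Itgb1 at -0.06 (adjusted p 0.423). With the length trend removed 3 receptors were called higher and 1 lower, against 21.7% and 22.1% of all genes. Partners of type IV collagen in basement membranes split evenly, with 5 of 14 higher and 5 lower (23.4% and 21.4% of all genes, median 0.18). The laminin chain Lama3 (14.6 ± 1.46 CPM in WT, 2.61 ± 0.901 in LKO, log2 fold change -2.44, adjusted p 1.44e-07) had the largest change of the list and fell, with Lamc3 (-1.15, adjusted p 0.00329) and Lama5 (-0.46, adjusted p 0.0177), while Lamb1 (0.85, adjusted p 9.75e-05) and nidogen, Nid1 (0.63, adjusted p 0.00268), rose. With the length trend removed this list had 9 genes higher and 2 lower, so its balance depends on that trend.

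Of 14 tested genes of fibrogenic signalling 8 rose and 2 fell (median 0.48), against 23.4% and 21.4% of all genes. The ligands Pdgfa (0.79, adjusted p 2.09e-04), Pdgfb (1.00, adjusted p 0.00297) and Tgfb1 (0.45, adjusted p 0.00383), the growth factor target Ctgf (0.64, adjusted p 2.54e-04) and Acta2 (0.93, adjusted p 0.00311), smooth muscle actin of activated stellate cells, rose. Tgfb2 and Tgfb3 were not called (-0.15 and 0.06, adjusted p 0.642 and 0.855). The signal transducer Smad3 (19.5 ± 0.339 CPM in WT, 13.1 ± 1.39 in LKO, log2 fold change -0.57, adjusted p 2.17e-04) and the receptor Tgfbr1 (-0.30, adjusted p 0.0163) fell. With the length trend removed 10 genes of signalling were called higher and 1 lower, where 21.7% and 22.1% of all genes were. Chain folding then had 6 and 4, cleavage and cross-linking 8 and 1 and degradation 5 and 2.

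Stellate cell markers moved in the direction of the collagens that rose. Of 9 tested stellate cell markers 8 rose and none fell (23.4% and 21.4% of all genes), and their summed level was 141 to 151 CPM in WT and 256 to 270 in LKO libraries, with no overlap. Ecm1 was the most abundant of them (68.2 ± 5.17 CPM in WT, 132 ± 5.71 in LKO) and weighs most in this sum. Lrat (10.1 ± 0.759 CPM in WT, 17.9 ± 1.74 in LKO, log2 fold change 0.82, adjusted p 1.97e-05), the enzyme that makes retinyl esters in quiescent stellate cells, Reln (34.9 ± 0.815 CPM in WT, 58.5 ± 6.45 in LKO, log2 fold change 0.75, adjusted p 9.45e-06), Rgs5 (0.84, adjusted p 7.27e-06), Pdgfrb (0.76, adjusted p 3.88e-04), Des (0.81, adjusted p 7.57e-04) and Ecm1 (0.95, adjusted p 1.73e-07) were among those called higher. Hhip was not called (0.30, adjusted p 0.308), and Gfap was too low to test. Portal fibroblast markers summed to 7.71 to 10.7 CPM in WT and 13.4 to 14.9 in LKO (4 of 5 tested higher). Gli1 and Thy1 were too low to test. With the length trend removed 2 of 5 portal fibroblast markers and all 9 tested stellate markers were higher, against 21.7% of all genes.

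Marker sums of other cell types also lay higher in LKO libraries, apart from those of mesothelium. The counts of markers below stand beside 23.4% of all tested genes called higher, or 21.7% with the length trend removed. Cholangiocyte markers summed to 65.1 to 69.3 CPM in WT and 91.6 to 112 in LKO (3 of 5 higher), Kupffer cell markers to 110.4 to 112 and 141 to 170.3 (5 of 6 higher), and sinusoidal endothelial markers to 153 to 158 and 177 to 181 (3 of 8 higher). With the length trend removed 3 of 5 cholangiocyte, 3 of 6 Kupffer cell and 5 of 8 endothelial markers were called higher. Mesothelium markers overlapped (4.66 to 6.14 and 4.11 to 5.85, 0 of 3 called by edgeR), and the 4 lymphocyte markers came to 0.654 to 1.05 and 1.12 to 2.22 CPM and were not tested. The 6 hepatocyte markers summed to 105848 to 109710 CPM in WT and 143477 to 170496 in LKO. Alb made up most of this sum (83527 ± 1795 CPM in WT, 129540 ± 9346 in LKO). By edgeR, Alb (0.63, adjusted p 4.13e-06), Ttr (0.86, adjusted p 1.27e-05) and Tat (0.17, adjusted p 0.0118) rose and Hnf4a (-0.41, adjusted p 2.81e-04) fell. Apoa1 (0.23, adjusted p 0.0581) and Cps1 (0.12, adjusted p 0.171) were not called. The part of these marker shifts in the collagen results was not tested.

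**Figure D3:**
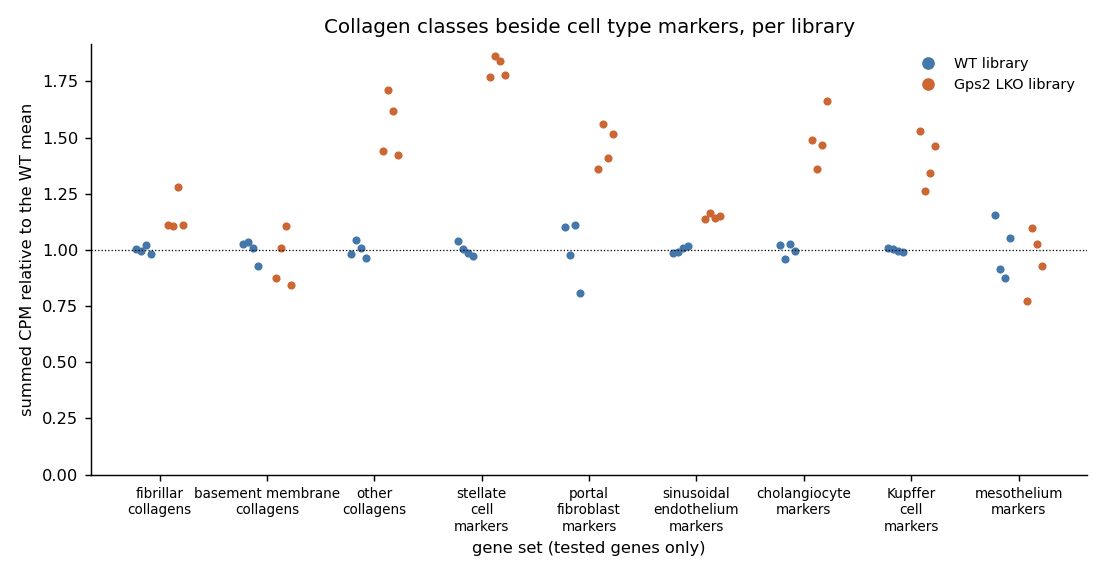
Summed CPM of the 3 collagen classes and of 6 cell type marker lists, tested genes only, for each library, divided by the WT mean of the set (dotted line). Stellate cell markers, of which Ecm1 is the most abundant, form the set with the widest gap between LKO and WT libraries (256 to 270 against 141 to 151 CPM). Basement membrane collagens and mesothelium markers overlap.

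GPS2 occupancy was measured in 1 WT and 1 Gps2 LKO library, so the difference has no replicate check and the intervals cover counting error only. Peaks were named by the nearest gene start, which here gave 95 peaks at 21 collagen genes. These peaks held 2198 tags in WT and 161 in LKO liver, a ratio of 0.0767 in normalised tags, which are tags scaled to 10000000 per library (95% exact interval 0.0650 to 0.0901), against 0.0439 over all 49018 peaks. Of the collagen peaks with at least 20 tags, 44 of 45 were more than 1.5-fold lower in LKO, where 99.8% of all such peaks were. The ratio was 0.0123 (0.00397 to 0.0289) for fibrillar, 0.0373 (0.0260 to 0.0520) for basement membrane and 0.165 (0.135 to 0.201) for other collagens. The exception was a peak assigned to Col19a1 at chr1:24619381-24619803, which held 0 tags in WT and 66 in LKO, at least 23.1-fold higher if WT is set at the floor of 3 counts. That peak alone held 66 of the 161 LKO tags, and without it, a choice made after seeing the data, the ratio was 0.0453 (0.0365 to 0.0556) for all collagens and 0.0743 (0.0553 to 0.0980) for the other collagens.

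The tags were unevenly spread over the genes. Col18a1 had 14 peaks with 502 tags in WT and 11 in LKO, Col14a1 13 peaks with 310 and 26, Col4a2 16 peaks with 263 and 16, Col27a1 5 peaks with 261 and 2, Col15a1 5 peaks with 194 and 4 and Col5a3 5 peaks with 157 and 1. No GPS2 peak was assigned to Col1a1, Col1a2, Col3a1, Col5a1, Col5a2, Col4a5 or Col8a1, all of which rose in RNA. The 4 peaks whose sequences are shown above held 84, 76, 47 and 43 tags in WT (Col18a1, Col27a1, Col15a1, Col5a3) and 0 in LKO. They were picked on these tags, so their fall describes the choice and is not a further result.

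Set beside the RNA, all 4 collagens that fell had a GPS2 peak, with 64 to 261 tags in WT and a median of 175.5, whereas 7 of the 14 that rose had one, with 0 to 310 tags and a median of 3. Of the 5 genes tested but not called 3 had a peak (median 34 tags, with Col18a1 at 502), and of the 11 too low to test 3 had. The span of the gene, which bears on how many peaks can be assigned to it, had medians of 113 kb for the genes that fell and 95.7 kb for those that rose. These counts rest on 4 genes in the lower group and are given as a description. The 49018 GPS2 peaks bore 14342 gene names in all. How many of all genes that rose or fell had a GPS2 peak is not given here, so the counts cannot be read as particular to collagens. Col4a1 and Col4a2 start next to each other in opposite directions, so a peak within Col4a1 can be assigned to Col4a2.

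**Figure D4:**
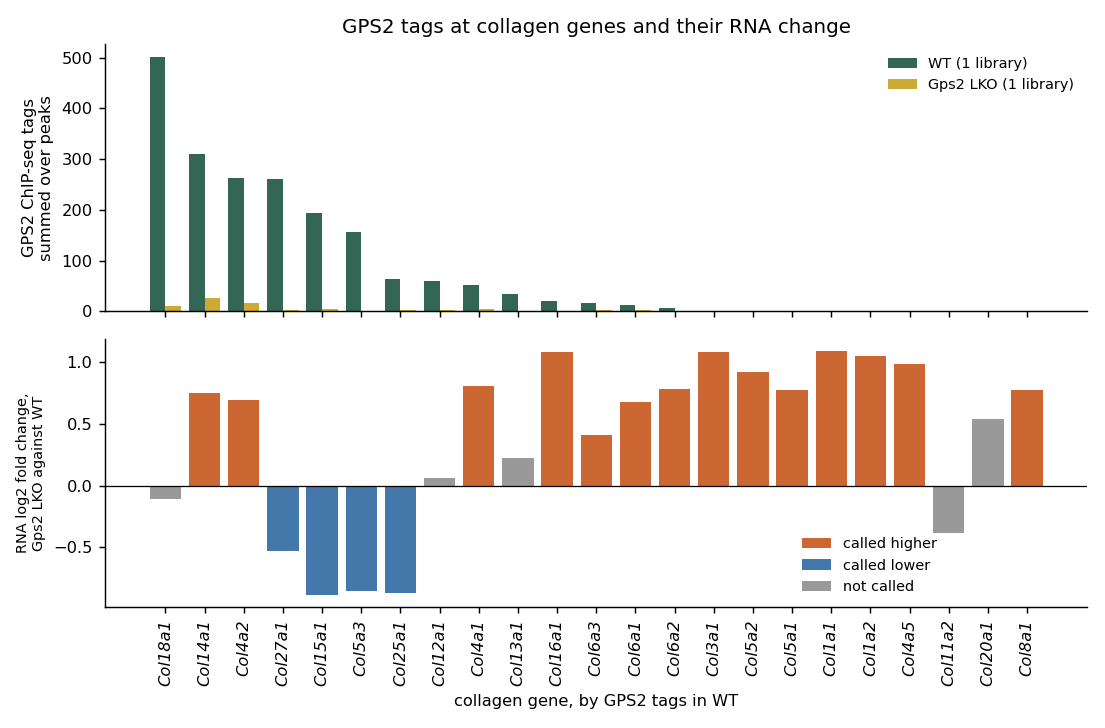
Upper panel, GPS2 ChIP-seq tags summed over the peaks of each tested collagen in the 1 WT and the 1 Gps2 LKO library. Lower panel, RNA log2 fold change of the same genes, ordered by their WT tags. The 4 genes called lower in RNA lie between Col4a2 and Col12a1, with 64 to 261 tags, and the 7 genes called higher without a GPS2 peak lie to the right.

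GPS2 peaks at collagens mostly lay where other factors and active chromatin marks were found. Of the 95 GPS2 peaks 85 shared at least 1 base with an NCOR peak, 72 with a PPARa peak and 78 with a peak of H3K27ac or H3K4me3, which is 89.5%, 75.8% and 82.1% against 85.7%, 87.7% and 92.5% of all GPS2 peaks. By class, 10 of 11 fibrillar, 26 of 40 basement membrane and 36 of 44 other collagen GPS2 peaks overlapped PPARa. All 5 GPS2 peaks of Col27a1 overlapped NCOR, PPARa and active chromatin, as did all 5 of Col15a1. At Col4a2 15 of 16 overlapped NCOR and 7 of 16 overlapped PPARa.

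RNA polymerase II, also with 1 library a group, held 1249 tags in WT and 1349 in LKO over 53 peaks at 25 collagen genes, a ratio of 1.06 (95% exact interval 0.979 to 1.14), the same as the ratio of 1.06 over all peaks. Of 38 collagen peaks with at least 20 tags 10 were more than 1.5-fold higher and 7 lower, against 11.0% and 7.43% of all such peaks. The ratio was 1.08 (0.922 to 1.27) for fibrillar, 0.969 (0.865 to 1.09) for basement membrane and 1.203 (1.04 to 1.39) for other collagens. Col15a1 went from 69 to 43 tags (0.611, 0.407 to 0.907), Col3a1 from 37 to 38 (1.01, 0.623 to 1.63), Col1a1 from 28 to 21 (0.735, 0.397 to 1.34) and Col27a1 from 109 to 107 (0.962, 0.730 to 1.27). At this depth only Col15a1 among these 4 had an interval that excluded equal levels.

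Of the promoter and enhancer marks at collagens in Gps2 LKO livers, 1 peak passed the test, and it was at Col27a1. Of 96 tested H3K27ac peaks at 30 collagen genes 0 were called higher and 1 lower, against 1.21% and 0.212% of all peaks, by edgeR with 2 libraries a group. At an unadjusted p below 0.05, 12 were higher and 6 lower (11.5% and 3.11% of all peaks), and DESeq2 called 0 higher and 2 lower (1.08% and 0.449% of all peaks). In 26 of the 96 both LKO libraries lay above both WT libraries and in 16 below (30.1% and 14.6% of all peaks), and the median log2 fold change was 0.05 against 0.06 over all peaks.

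The called peak covers the start of Col27a1 and is centred 629 bp into the gene at chr4:62874628-62879523. It held 328 and 299.6 normalised tags in WT and 211 and 202 in LKO (log2 fold change -0.60, SE 0.0922, adjusted p 0.0294, edgeR). Both LKO libraries were lower than both WT libraries by about the same amount. With 1 WT library left out the call was lost (adjusted p 0.28 without replicate 1, 0.233 without replicate 2). The other 3 H3K27ac peaks of Col27a1 were not called, though in each both LKO libraries lay below both WT libraries. The largest of them, centred 18099 bp into the gene within an intron, held 907 and 818 and 705 and 639.5 (log2 fold change -0.36, SE 0.0916, adjusted p 0.113), and the one at 5654 bp held 78.3 and 54.8 and 31.2 and 33.3 (log2 fold change -1.04, SE 0.209, adjusted p 0.0611). Summed over its 4 peaks Col27a1 held 1351 and 1213 normalised tags in WT and 971 and 902 in LKO (log2 fold change -0.45, SE 0.0869, adjusted p 0.0579), short of the threshold.

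At the collagens whose RNA rose, no summed H3K27ac level passed the test. The fit of these sums was not simulated. In simulated counts the fit per peak called 1% of log2 changes of 1. That simulation covered 85614 peaks, against 47108 tested here, at a dispersion of 0.05 that was set and not estimated from these data. Its share therefore cannot be taken as the power of the real test. A missing call is not evidence of an unchanged level. Col3a1 held 46.8 and 40.9 normalised tags in WT and 52.7 and 54 in LKO (log2 fold change 0.29, SE 0.148, adjusted p 0.423, edgeR), and Col1a1 44.4 and 41.5 and 44.02 and 35.3 (log2 fold change -0.12, SE 0.171, adjusted p 0.81). Both are low beside Col18a1, at 4910.4 and 4404 and 4692 and 4517 (log2 fold change -0.02, SE 0.0860, adjusted p 0.957). Summed per gene, 10 of the 14 collagens that rose in RNA had a positive log2 fold change of H3K27ac (median 0.15) and 1 of the 4 that fell did (median -0.12). The median over all genes was 0.04, and the shares of all genes that rose or fell in RNA with a positive value are not given here. By this sum 0 collagens were called (4 higher and 1 lower at an unadjusted p below 0.05 against 12.8% and 2.82% of all genes, with 1.63% of all genes called higher and 0.207% lower, edgeR). Col5a3, whose RNA fell, held 836 and 696 and 794 and 711 normalised tags, and these groups overlap.

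H3K4me3, a mark of promoters, gave 0 calls in either direction among 43 collagen peaks at 30 genes by edgeR (0.798% of all peaks higher, 0.118% lower), with 3 higher and 3 lower at an unadjusted p below 0.05 (6.39% and 1.67%) and a median log2 fold change of 0.11 against 0.04. DESeq2 likewise called 0 in either direction (0.837% and 0.185% of all peaks). The peak over the start of Col27a1 held 622 and 607 normalised tags in WT and 533 and 503 in LKO, the peak over the start of Col3a1 51.7 and 65.2 and 77.3 and 69.7, and the Col15a1 peak, centred 35674 bp into the gene within an intron, 138 and 84.1 and 78.4 and 66.5. The LKO libraries lay below the WT libraries at Col27a1 and Col15a1 and above them at Col3a1, with adjusted p of 0.157, 0.416 and 0.819. Of the 43 peaks, 14 had both LKO libraries above both WT libraries and 5 had them below, and the share over all peaks is not given here. Among genes whose RNA rose, the peaks of Col1a2, Col5a2, Col6a1, Col6a2 and Col16a1 also lay above. Those of Col1a1, Col4a5, Col6a3 and Col8a1 overlapped. The groups overlapped at Col5a3 (log2 fold change 0.01) and Col25a1 (0.03), whose RNA fell, and at Col14a1 (-0.05), whose RNA rose.

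In Ncor LKO livers the same gene stood out. Of 157 tested H3K27ac peaks at 36 collagen genes 1 was called higher and 3 lower, against 2.32% and 0.801% of all peaks, by edgeR with 3 libraries a group, and all 3 that were lower belonged to Col27a1. The intron peak centred 18012 bp into the gene, chr4:62889894-62899023, held 738, 615 and 581 normalised tags in WT and 204, 241 and 219.9 in LKO (log2 fold change -1.54, SE 0.119, adjusted p 0.00152). The peak over the start, chr4:62876141-62879072, held 221, 164 and 128 and 54.3, 53.7 and 50.3 (log2 fold change -1.70, SE 0.188, adjusted p 0.00322). The LKO libraries were nearly alike and the WT libraries spread more, yet the groups were far apart, and both calls held under all 10 alternatives.

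The smaller peak at 5413 bp held 53.5, 36.7 and 16.1 normalised tags in WT and 7.01, 6.83 and 6.72 in LKO (log2 fold change -2.36, SE 0.382, adjusted p 0.0117, edgeR), with an adjusted p of 0.055 when WT replicate 2 was left out. The peak called higher lies in an intron of Col12a1 at chr9:79561834-79563226 and held 58.3, 50.6 and 43.6 and 85.7, 91.7 and 86.3 (log2 fold change 0.79, SE 0.146, adjusted p 0.0195), with its call kept under 6 of 10 alternatives and lost without WT replicate 2 (adjusted p 0.098). Summed per gene, Col27a1 was the only collagen called in the Ncor line, 1033, 833 and 741 normalised tags in WT and 282, 316 and 294 in LKO (log2 fold change -1.55, SE 0.126, adjusted p 8.30e-04, edgeR, where 2.00% of all genes were called higher and 0.997% lower). Col5a3 held 524, 499 and 587 and 474, 399 and 382 (log2 fold change -0.36, SE 0.108, adjusted p 0.121), below WT in all 3 LKO libraries and not called.

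In Smrt LKO livers 0 of 156 tested collagen peaks were called by edgeR, as for all peaks (0%), with 2 higher and 4 lower at an unadjusted p below 0.05 (3.32% and 2.61% of all peaks), and DESeq2 called 0 collagen peaks as well (0.0683% of all peaks higher, 0.0305% lower). The Col27a1 intron peak held 287, 287 and 435 normalised tags in WT and 302, 363 and 362 in LKO (log2 fold change 0.03, SE 0.163, adjusted p 0.984), and the start peak 78.5, 79.7 and 107 and 84.3, 90.1 and 109 (log2 fold change 0.10, SE 0.164, adjusted p 0.932). WT replicate 3 was the highest library at both, and the groups overlapped. Since both lines were counted over the same peaks, the difference between the Ncor effect and the Smrt effect could be tested in 1 fit of all 12 libraries. It was -1.57 (log2, adjusted p 0.0122, edgeR) at the intron peak and -1.80 (adjusted p 0.0123) at the start peak, where 0.0959% of all peaks had such a difference called lower. The difference between the effects cannot be told apart from other differences between the lines, including sex as read from the Y-linked and Xist tags given above.

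**Figure D5:**
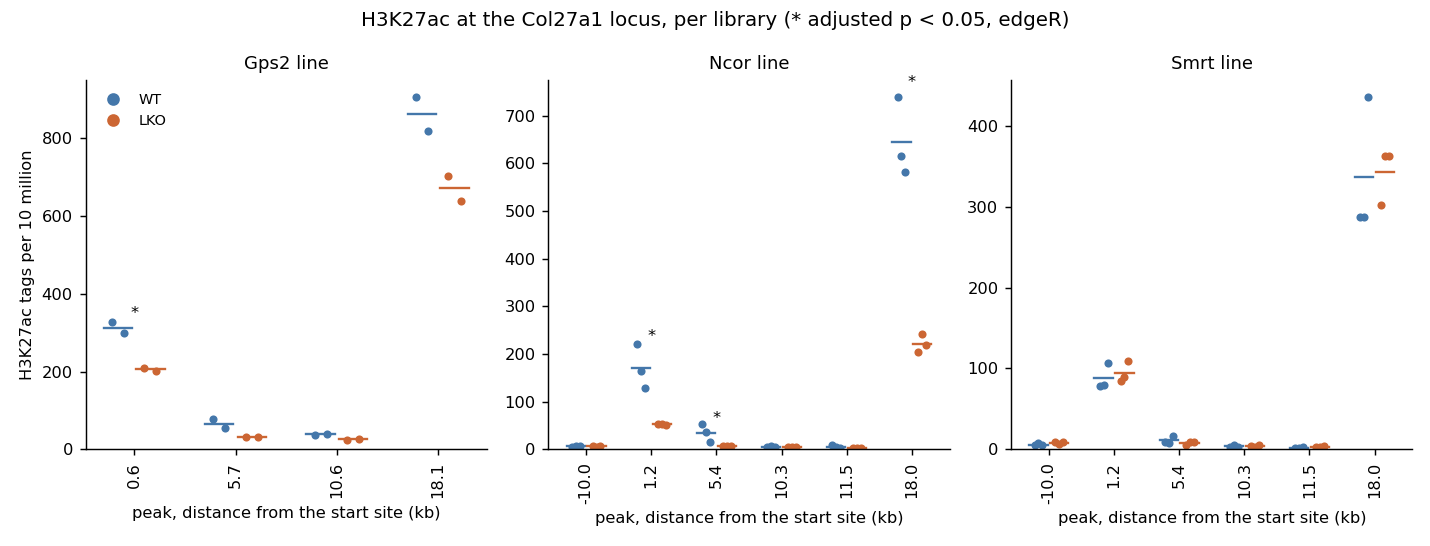
H3K27ac tags scaled to 10000000 per library at each Col27a1 peak, by distance of the peak centre from the start site, with 1 point per library and a bar at the mean, in the Gps2 (2 against 2), Ncor (3 against 3) and Smrt (3 against 3) lines, each with its own axis. All LKO libraries lie below all WT libraries at 4 of 4 peaks of the Gps2 line (14.6% of all its peaks), at 3 of 6 peaks of the Ncor line (those centred 1160, 5413 and 18012 bp into the gene) and at 0 of 6 peaks of the Smrt line. The share over all peaks is not given for the Ncor and Smrt lines, and the gene was chosen because its peaks were called.

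Calls of GPS2 occupancy at collagens in Ncor LKO livers depended on WT replicate 3 and on the fit. Of 96 collagen peaks at 21 genes 0 were called in either direction by edgeR (0% of all peaks higher, 0.0338% lower), and 48 were lower and 0 higher at an unadjusted p below 0.05 (33.9% and 0.457% of all peaks). DESeq2 called 0 in either direction (0.987% and 0.165%). WT replicate 3 had 3.07% of its tags in peaks, close to the LKO libraries (2.45% to 3.15%), whereas the other WT libraries had 8.23% and 7.82%. Without WT replicate 3, 68 collagen peaks were called lower and 2 higher, where 59.1% and 0.398% of all peaks were. The Col27a1 intron peak at chr4:62891186-62891401 held 54.7, 92.3 and 31.1 normalised tags in WT and 17.2, 25.4 and 20.8 in LKO (log2 fold change -1.48, SE 0.612, adjusted p 0.0961), with every LKO library below the lowest WT library. The median log2 fold change of the collagen peaks was -1.38 against -1.12 over all peaks, and TMM scaling brought the median over all peaks to -0.02 and that of the collagen peaks to -0.27.

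In Ppara KO livers GPS2 at 47 collagen peaks of 14 genes gave 0 calls by edgeR (0% of all peaks higher, 0.273% lower), with 9 lower and 0 higher at an unadjusted p below 0.05 (22.998% and 0.0251% of all peaks) and a median of -0.97 against -0.93 over all peaks, and 0 calls by DESeq2 (0.0429% and 0.0601%). NCOR changed at single collagen peaks of these livers. Of 210 peaks at 33 genes 2 were called higher and 6 lower, against 0.136% and 2.51% of all peaks, and 4 of these 8 were assigned to the type IV gene Col4a2. The Col4a2 peak chr8:11220591-11220748 held 17.1, 53.3 and 30.3 normalised tags in WT and 4.905, 4.04 and 4.27 in KO (log2 fold change -2.91, SE 0.411, adjusted p 1.70e-09, edgeR). A second, chr8:11288446-11288627, went the other way, from 8.94, 2.58 and 7.58 to 26.2, 24.2 and 21.3 (log2 fold change 1.88, SE 0.402, adjusted p 4.88e-04). Both lie in introns of Col4a1, which is read away from Col4a2, and both calls held under all 10 alternatives, so NCOR fell at the one and rose at the other in the same livers.

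The remaining calls were less firm. The Col4a2 peak at -58171 bp (log2 fold change 1.37, SE 0.388, adjusted p 0.023, edgeR) rose, and the Col4a2 peak at -91419 bp, an intron peak of Col18a1 (log2 fold change -2.01, SE 0.510, adjusted p 0.00739), 2 peaks at the start of Col6a6 and 1 peak of Col15a1 (log2 fold change -1.59, SE 0.468, adjusted p 0.0324) fell. The lower calls other than the first Col4a2 peak were lost with TMM scaling and with DESeq2, which each called 3 collagen peaks higher and 1 lower (0.833% and 1.02% of all peaks with TMM, 0.174% and 0.512% with DESeq2). The Col4a2 peak at -91419 bp rested on WT replicate 2 (3.25, 28.4 and 1.69 normalised tags in WT, 0.817, 2.02 and 1.42 in KO), without which its adjusted p was 0.787. The Col18a1 peak rested likewise on WT replicate 3 (5.69, 6.02 and 24.4 and 3.27, 4.04 and 1.42, adjusted p 0.645 without it). In Gps2 LKO livers 0 of 138 NCOR peaks at 27 collagen genes were called by edgeR (0.0124% of all peaks higher, 0.00495% lower), with 2 higher and 1 lower at an unadjusted p below 0.05 (1.78% and 1.01%) and 0 by DESeq2 (0.116% and 0.0893%). In simulated counts with a dispersion of 0.05, set and not estimated from these data, the edgeR fit of this comparison called 8% of log2 changes of 1.

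PPARa calls at collagen peaks of Gps2 LKO livers changed with the fit. The 3 WT libraries of this comparison differed by less than sampling noise (chi-square per peak 0.92 to 0.94) and were counted as 1 sample, so that the p-values rest on the spread of the 3 LKO libraries alone. In that fit 7 of 163 peaks at 35 collagen genes were called higher and 0 lower by edgeR, where 2.49% and 0.0234% of all peaks were. As 3 separate libraries they gave 73 higher and 0 lower (36.6% and 0.300% of all peaks), with TMM scaling 6 higher and 4 lower (2.04% and 2.12%), and with DESeq2 0 in either direction (0.387% and 0.692%). TMM scaling moved the median over all peaks from 0.62 to 0.02, and that of the collagen peaks from 0.66 to 0.07. In the edgeR fit with WT as 1 sample the largest of these peaks assigned to Col4a2, chr8:11183599-11183802, held 30.4, 38 and 34.9 normalised tags in WT and 106, 82.4 and 90.9 in LKO (log2 fold change 1.39, SE 0.322, adjusted p 0.00562). It lies beyond the far end of Col4a1. The others were at Col5a3 (15.2, 15.2 and 23.7 and 47.1, 55.9 and 44.6, log2 fold change 1.47, SE 0.391, adjusted p 0.0205), Col12a1, Col14a1, Col9a2, Col26a1 and a second Col4a2 peak, with log2 fold changes of 0.97 to 1.74. Col5a3 fell in RNA, Col4a2 and Col14a1 rose and Col12a1 was not called.

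PPARa peaks in Ncor LKO livers gave 0 collagen calls higher and 1 lower among 134 peaks at 30 genes (0.151% and 0.0453% of all peaks, edgeR), with 6 higher and 6 lower at an unadjusted p below 0.05 (4.001% and 1.23%) and 0 higher and 1 lower by DESeq2 (0.588% and 0.172%). The peak lies in an intron of Col27a1, chr4:62882627-62882818, and held 30.8, 27.2 and 3.804 normalised tags in WT and 1.14, 2.13 and 7.296 in LKO (log2 fold change -2.54, SE 0.564, adjusted p 0.0118). WT replicate 3 lay among the LKO libraries, had 8.96% of its tags in peaks against 18.6% to 19.3% in the other WT libraries, and the call held under 4 of 10 alternatives.

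In Ppara KO livers, where the antibody's target is deleted, 24 of 67 PPARa peaks at 14 collagen genes were called lower and 0 higher, against 27.6% and 0.0174% over all peaks (edgeR, 2 libraries a group). They were 8 at Col18a1, 4 at Col14a1, 3 each at Col5a3 and Col6a6, 2 each at Col12a1 and Col27a1 and 1 each at Col4a2 and Col15a1. The Col14a1 peak at -4373 bp held 17.7 and 20.6 normalised tags in WT and 0 and 1.47 in KO (log2 fold change -4.59, SE 0.648, adjusted p 1.06e-04), and the Col27a1 intron peak at 15851 bp held 20.5 and 16.8 and 3.43 and 1.47 (log2 fold change -2.87, SE 0.477, adjusted p 3.93e-04). In 54 of the 67 peaks both KO libraries lay below both WT libraries (68.3% of all peaks). The counts are low, and with DESeq2 (10.5% of all peaks lower, 2.62% higher) or without either WT library 0 collagen peaks were called.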

How the data were processed

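RNA-seq and ChIP-seq of mouse liver were used, 8 and 64 libraries of 74 samples, grouped by their labels. The 2 input libraries were not used. The authors deposited raw read counts per gene for RNA and raw tag counts per peak for ChIP, with the genomic position of each peak in mm9. Processing notes list Bowtie2, HOMER, HISAT2, SAMtools and featureCounts and the builds mm9, GRCm38 and mm10. The gene positions of the RNA table are those of GRCm38 (34 of 34 collagens within 1000 bp, 3 of 34 for mm9), although the methods name mm9. Columns with the authors' own fold changes, test statistics and p-values in these tables were not used. Peaks bear the name of the nearest gene start, and those of Ncor and Smrt were counted over 1 shared peak list, as were H3K27ac and H3K4me3 of the Gps2 line.

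RNA counts were filtered with filterByExpr, scaled by TMM and tested with edgeR 4.0.16 (quasi-likelihood, R 4.3.3), 4 against 4 libraries. The length trend was removed by an offset fitted to exon length over all tested genes. ChIP counts were tested per peak with edgeR on the total tags of each library, and are printed as normalised tags (scaled to 10000000 tags per library). Calls are at an adjusted p below 0.05 over all features. Alternatives were DESeq2 1.42.0, TMM or no TMM, other filters, a replicate block, leaving out each library and peaks within 10000 bp of a start. Sums over the peaks of a gene were tested in the same way. With 1 library a group, ratios have exact 95% intervals of the tag counts, a floor of 3 counts stands for 0, and intervals and floors cover counting error only. The fits were tested on simulated counts with a dispersion of 0.05 and 200 changed features. This dispersion was set and not estimated from these data, so the shares called need not hold for them. At a log2 fold change of 1, 71.5% of the changes were called for RNA, 1% for H3K27ac and 8% for NCOR in Gps2 LKO. At a log2 fold change of 2 these were 100%, 86% and 97%. Same-numbered libraries were not treated as pairs, since the labels do not tie the numbers together. In no comparison with 3 or more of them did every number correlate above 0.1 (RNA 0.036 to 0.163). With 2 libraries a group the correlation was 0.179 for H3K27ac and 0.239 for H3K4me3 in Gps2 LKO, and 0.0179 for PPARa in Ppara KO. The counts with a replicate block are given below. The members and gene lists were chosen with earlier results of these data known. Genes named are all collagens and, from each list, those with the smallest adjusted p together with members of a known role.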

Additional observations from a re-analysis of the deposited data

Results flagged for a closer look

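In 5 of 48 groups of 4 RNA libraries 1 library lay far from the other 3, by the share of the range of the group that its gap to the nearest library takes up (Dixon's test at the 95% level, which chance passes in about 5% of groups). Col4a2 in WT replicate 1 was high (0.885 of the range), as were Col12a1 in LKO replicate 2 (0.868), Col16a1 in WT replicate 3 (0.923) and Col16a1 in LKO replicate 3 (0.898), and Col8a1 in WT replicate 1 was low (0.927). The calls of Col4a2 and Col16a1 did not depend on any single library, and Col12a1 was not called. Col8a1 lost its call with DESeq2 and when single libraries were left out.

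The H3K27ac effect differed between the Ncor and the Smrt line at 2 peaks of Col27a1. The log2 difference, Ncor effect minus Smrt effect, was -1.57 at the peak 18012 bp into the gene (adjusted p 0.0122, edgeR) and -1.80 at the peak 1160 bp into it (adjusted p 0.0123). LKO libraries were below WT libraries in 3 of 3 cases in the Ncor line and overlapped with them in the Smrt line. The part of the other differences between the lines, including sex as read from Y-linked and Xist tags, was not tested.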

How the results depend on the processing

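Of 338 values of single collagen genes in RNA under an alternative, 321 kept their direction and their side of the threshold, 13 lost the call, 4 gained one and 0 changed direction. The counts of 14 higher and 4 lower collagens stayed within 12 to 16 and 3 to 5 under all alternatives run (12 to 14 and 4 when 1 library was left out), and a replicate block gave 14 and 4. Counts of ChIP peaks moved more, and the causes were not tested beyond what each alternative changes.

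For H3K27ac in Gps2 LKO (0 collagen peaks higher, 1 lower) the replicate block gave 3 and 4, the use of all peaks of the shared list 2 and 2, DESeq2 2 lower, and leaving out 1 library 0 to 3 and 0 to 6. For H3K4me3 in Gps2 LKO (0 and 0) the block gave 1 and 2, and leaving out 1 library 0 to 1 higher. For H3K27ac in Ncor LKO (1 and 3) DESeq2 gave 3 higher, the block 0 higher, and leaving out 1 library 0 to 2 and 2 to 5. For GPS2 in Ncor LKO (0 and 0) a mean of at least 10 tags gave 13 lower, the replicate block 30 lower, and leaving out 1 library 0 to 2 higher and 0 to 68 lower, the largest of these without WT replicate 3.

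For NCOR in Ppara KO (2 and 6) TMM and DESeq2 gave 1 lower each, peaks within 10000 bp of a start 0 and 2, and leaving out 1 library 1 to 2 and 3 to 6. For NCOR in Gps2 LKO (0 higher) TMM and the replicate block gave 1 each. For PPARa in Gps2 LKO with 3 WT libraries (73 and 0) TMM gave 6 and 4, DESeq2 0 higher, WT as 1 sample 7 higher, peaks within 10000 bp 15 higher, and leaving out 1 library 43 to 63 and 0 to 1. For PPARa in Ncor LKO (0 and 1) TMM gave 1 and 3, the block 0 lower and leaving out 1 library 0 to 3 lower. For PPARa in Ppara KO (24 lower) TMM gave 2, DESeq2 0, a mean of at least 10 tags 11, the replicate block 0, peaks within 10000 bp 7, and leaving out 1 library 0 to 19. The GPS2 tag ratio of 0.0767 became 1.75 when tags were scaled to those in all peaks of the table, since nearly all peaks lost tags. Without the Col19a1 peak, an alternative chosen after seeing the data, these were 0.0453 and 1.032. With 1 to 3 libraries a group, depth and replicate number limit which changes at collagen peaks can be seen, and not only at weak ones.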
